A study of Mus musculus with 24 samples.

Results

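The let-7 family was followed in the mouse lung after birth, as the 9 members that the array carries: mmu-let-7a, mmu-let-7b, mmu-let-7c, mmu-let-7d, mmu-let-7e, mmu-let-7f, mmu-let-7g, mmu-let-7i and mmu-miR-98, written below without the species prefix. They were set by their names on the array and not by a cut on their values, but earlier results of these data were known. They are 9 of 650 miRNA names and 9 of the 322 miRNAs that were tested. MicroRNAs (miRNAs) are short RNAs that pair with messenger RNAs, mainly through a stretch near their 5′ end called the seed, and lower the output of those messages. The let-7 family is one of the oldest known in animals. It is low in stem cells and early embryos, where the RNA-binding protein Lin28 blocks the maturation of its precursors, and it is abundant in differentiated tissues, the lung among them. Its known targets include Lin28 itself, Hmga2 and the Ras genes, which favour growth. miR-98 carries the let-7 seed under another name.

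Lungs came from healthy mice of the strain C57BL/6, and no mouse was given an agent or an altered allele per the labels. Whole lung was taken at day 1, day 4, day 7 and day 14 after birth (5 arrays each) and at 6 weeks, written here as day 42 (4 arrays). The study's title names fetal lungs, but its design text and its sample labels name postnatal ages, and these were used. From each sample, 100 ng of total RNA (miRNeasy mini kit, Qiagen) was labelled with Cy3 and read on 1 Agilent array of 1 colour. The labels number the replicates as biological, and nothing more is said of litter or sex.

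All 9 members were found in RefSeq's miRNA table (build GRCm38.p6). Their mature sequences are shown because the family is defined by them. The seed, bases 2 to 8 from the 5′ end, is in capitals.
let-7a: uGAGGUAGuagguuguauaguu
let-7b: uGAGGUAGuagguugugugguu
let-7c: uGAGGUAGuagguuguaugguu
let-7d: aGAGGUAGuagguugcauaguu
let-7e: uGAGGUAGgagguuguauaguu
let-7f: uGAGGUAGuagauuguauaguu
let-7g: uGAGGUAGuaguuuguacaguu
let-7i: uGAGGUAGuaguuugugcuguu
miR-98: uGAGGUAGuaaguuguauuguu

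The 9 sequences have 1 seed, GAGGUAG, and a length of 22 bases. They differ from one another at 1 to 6 positions, and 4 of the 36 pairs differ at 1 position. Against let-7a, with positions counted from the 5′ end, let-7c has A19G and let-7b has A17G and A19G. let-7e has U9G, let-7f has G12A, and let-7d has U1A and U16C. let-7g has G12U and U18C, miR-98 has G11A and A19U, and let-7i has G12U, A17G, U18C and A19U. Each member is read by 2 probes of its own. Whether the probes of members that differ at 1 base share signal was not tested. The RefSeq table holds 2 further mouse miRNAs with this seed, let-7k and miR-1961, and neither is named on the array.

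The table places the members at 11 loci, several of them side by side. Loci that the table lacks were not looked for. let-7a, let-7f and let-7d come from hairpins within 2261 bases on the minus strand of chromosome 13 (mature let-7a at chr13:48538239-48538260, let-7f at chr13:48537889-48537910, let-7d at chr13:48536078-48536099), in no other annotated gene. let-7c (chr15:85706616-85706637) and let-7b (chr15:85707325-85707346) come from hairpins within 801 bases on the plus strand, inside the span of the long noncoding RNA gene Lncppara. A second let-7c locus (chr16:77599672-77599693) lies in no other annotated gene, and its hairpin and that of miR-99a lie within 815 bases. let-7e (chr17:17830366-17830387) lies inside the span of Spaca6, and its hairpin and that of miR-125a lie within 528 bases. A second let-7f locus (chrX:151912353-151912374) and miR-98 (chrX:151913229-151913250) have hairpins within 976 bases inside the span of Huwe1. let-7g (chr9:106178846-106178867) lies inside the span of Wdr82, and let-7i (chr10:122985698-122985719) lies in no other annotated gene. The gene table gives spans only, so exons and introns were not told apart.

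The 24 arrays lay on 3 slides of 8. Array brightness, taken before scaling as the 75th percentile over the 228 miRNAs that every array detected, ran from 923 to 2183 intensity units at day 1, 1190 to 2546 at day 4, 2171 to 2696 at day 7, 2302 to 4954 at day 14 and 1727 to 4151 at day 42. The 5 arrays with the highest scores on the second principal component of the 322 tested miRNAs (22.0% of the variance) were set apart. They were replicates 4 and 5 of day 1, replicates 1 and 3 of day 4 and replicate 4 of day 42. Their scores there were 4.92 to 15.7, against at most 3.13 on any other array, and each was less bright than every other array of its age. The cut at 5 arrays is not sharp. The array at 3.13 was replicate 1 of day 1, while replicates 2 and 3 of day 1 had -7.28 and -6.79. Its brightness of 1571 was below the 1727 of replicate 4 of day 42. The 5 arrays are named below as the 5 dim arrays, and results are given with and without them. Of the markers used to check the tissue, 6 of 6 of epithelium, 2 of 2 of endothelium, 5 of 5 of mesenchyme and smooth muscle, 4 of 4 of leukocytes and 3 of 3 of red blood cells were detected on every array. Of 6 striated muscle markers, 3 or 4 were detected on all arrays of an age, and their mean log2 level ran from 4.96 to 10.2 on the day 1 arrays. The liver marker miR-122 was detected on no array of day 4. At each other age it was detected on some arrays but not all, with a log2 level up to 9.62 on a day 7 array. Of 2 brain markers, miR-124 was detected on no array, and miR-9 on some arrays of day 14 and day 42. The mean log2 level of the leukocyte markers was 8.85 to 10.1 on the day 1 arrays and 10.8 to 11.4 on the day 42 arrays. For the mesenchyme and smooth muscle markers it was 11.3 to 11.6 at day 1 and 10.3 to 11.0 at day 42. Of these 5 markers, 3 were called lower at day 42 by the test given below. The means at day 1 and day 42 were close for miR-143 (11.78 and 11.81) and miR-145 (9.15 and 9.15). Called higher were 2 of 2 markers of endothelium, 4 of 4 of leukocytes and 1 of 6 of epithelium. Of the red blood cell markers, 0 of 3 were called. Over all tested miRNAs, 18.9% were called higher and 42.9% lower. In RNA from whole tissue, fewer cells of a type and less RNA per cell cannot be told apart, and the part of cell composition in the results below was not tested.

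All 9 members were detected on all 24 arrays. All 180 spots of the members were well above background on every array and none was saturated. Values are log2 of the scaled signal per miRNA. Since a probe's brightness depends on its sequence, levels are compared between ages and not between members.

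let-7b and let-7c, whose hairpins are neighbours on chromosome 15, had the largest rises of the family between day 1 and day 42. On the log2 scale, let-7b rose by 1.03 ± 0.23 (SE; 2.05-fold) and let-7c by 0.97 ± 0.20 (1.96-fold). let-7g rose by 0.60 ± 0.13 (1.52-fold) and let-7f by 0.37 ± 0.11 (1.29-fold). let-7e, from chromosome 17, fell by 0.57 on the log2 scale (SE 0.18; 1.49-fold). The other 4 members were not called: let-7a differed by 0.34, miR-98 by 0.28, let-7i by 0.22 and let-7d by -0.02. Of the 13 alternatives below, 7 called let-7a and 7 called miR-98, all as rises.

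The test was limma's moderated test on all 322 miRNAs with Benjamini-Hochberg adjustment, and the threshold for a call was an adjusted p of 0.05. The adjusted p was 0.000213 for let-7c, 0.000312 for let-7g, 0.000476 for let-7b, 0.00743 for let-7f and 0.00990 for let-7e. For the members not called it was 0.0528 for miR-98, 0.0630 for let-7a, 0.106 for let-7i and 0.936 for let-7d. Thus 5 of 9 members were called, 4 higher and 1 lower, on a background where 61.8% of all tested miRNAs were called (18.9% higher and 42.9% lower). The 4 members let-7b, let-7c, let-7f and let-7g had every day 42 array above every day 1 array; 39.8% of all tested miRNAs had no overlap of these ages in either direction. The median difference was 0.34 over the members and -0.35 over all tested miRNAs. Leaving out the 5 dim arrays ended the call of let-7f (0.18, adjusted p = 0.106 by limma) and kept those of let-7b (1.02), let-7c (0.89), let-7g (0.39) and let-7e (-0.63). Leaving out any 1 of the 24 arrays kept all 5 calls and added up to 2 of the other members.

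The sign of some of these differences changed with the scaling between arrays. With the 75th percentile taken over all 650 names (the wider percentile), the median over all tested miRNAs moved from -0.35 to 0.30 and the share of rises among the called miRNAs from 30.7% to 61.6%. Under that scaling let-7e differed by 0.09 and let-7d rose by 0.64, and with no scaling let-7e rose by 0.43 and let-7d by 0.99. let-7e was called lower under 8 of the 13 alternatives run apart from leaving out single arrays, and was not called with the median (-0.21), normexp (-0.40), brightness as a covariate (-0.05) or the wider percentile. let-7b, let-7c and let-7g rose under each of the 13. let-7f rose under 10 of the 13 and had a positive difference in the other 3.

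Each slide held arrays of both ages, 1, 2 and 1 of day 42 and 2, 1 and 2 of day 1 on slides 1, 2 and 3, so that the difference could be read within each slide, without a test. let-7b differed by 0.51, 1.15 and 1.88, and let-7c by 0.57, 0.99 and 1.71. let-7g differed by 0.65, 0.43 and 0.64 and let-7f by 0.34, 0.26 and 0.52. These 4 members were higher at day 42 on all 3 slides. let-7e differed by -0.94, -0.50 and 0.02, and the slide with 0.02 is the one whose day 42 array is the dim replicate 4.

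**Figure D1:**
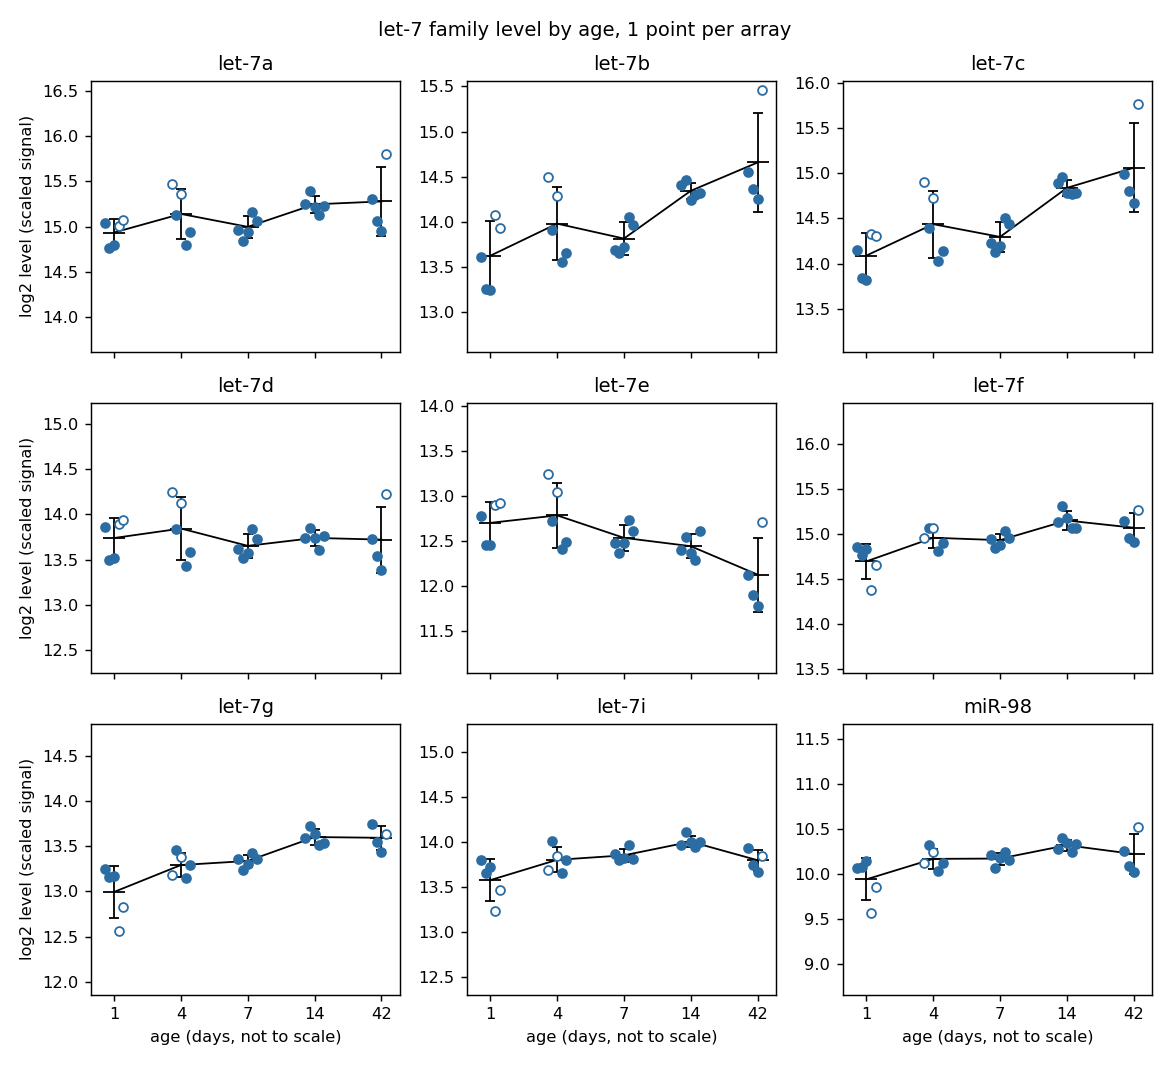
Log2 scaled signal of each member by age in days (5 arrays per age, 4 at day 42; ages are evenly spaced, not to scale). Points are arrays, open where they belong to the 5 dim arrays; horizontal marks and bars are the mean and SD, and every panel spans the same number of log2 units. let-7b and let-7c had their highest means at day 42 (14.66 and 15.06) and let-7e its lowest (12.13).

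For let-7b, the day 1 arrays had log2 levels of 13.61, 13.25, 13.25, 14.08 and 13.93, and the day 42 arrays 14.55, 14.36, 14.25 and 15.47. The arrays between these ages had 14.50, 13.90, 14.29, 13.56 and 13.65 at day 4, 13.69, 13.65, 13.72, 14.05 and 13.96 at day 7, and 14.41, 14.46, 14.24, 14.29 and 14.32 at day 14. Every day 14 array and every day 42 array lay above every day 1 and day 7 array. The 2 highest day 4 arrays were dim arrays and lay within the range of day 42, and the highest day 42 value belonged to the dim replicate 4.

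For let-7c, the day 1 arrays had log2 levels of 14.15, 13.84, 13.82, 14.32 and 14.31, and the day 42 arrays 15.00, 14.81, 14.67 and 15.77. The values were 14.90, 14.39, 14.72, 14.03 and 14.14 at day 4, 14.22, 14.12, 14.20, 14.50 and 14.44 at day 7, and 14.89, 14.96, 14.78, 14.78 and 14.78 at day 14. As for let-7b, the arrays of day 14 and day 42 lay above all those of day 1 and day 7, and the 2 dim arrays of day 4 lay among them. The means stood in the order day 1 (14.09), day 7 (14.30), day 4 (14.44), day 14 (14.84) and day 42 (15.06), and the arrays of neighbours in that order overlapped.

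For let-7e, the day 1 arrays had log2 levels of 12.77, 12.45, 12.46, 12.90 and 12.92, and the day 42 arrays 12.12, 11.90, 11.78 and 12.71. At day 4 the arrays had 13.25, 12.72, 13.05, 12.42 and 12.49, at day 7 12.48, 12.37, 12.48, 12.74 and 12.61, and at day 14 12.40, 12.54, 12.37, 12.30 and 12.61. On day 42, 3 of the 4 arrays lay below every array of the other ages, and the dim replicate 4 lay within the range of day 1. The ages therefore overlapped through 1 array.

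let-7g had log2 levels of 13.25, 13.16, 13.17, 12.57 and 12.83 on the day 1 arrays and of 13.75, 13.55, 13.44 and 13.64 on the day 42 arrays. Its 2 lowest day 1 values came from the dim arrays, where let-7b, let-7c and let-7e were high for their age. let-7f had 14.85, 14.76, 14.84, 14.37 and 14.65 at day 1 and 15.14, 14.96, 14.91 and 15.27 at day 42. For both, all day 42 arrays lay above all day 1 arrays, and for let-7f the gap between the ages was from 14.85 to 14.91.

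The members without a call had closer means. For let-7a the mean log2 level was 14.93 (SD 0.15, 5 arrays) on day 1 and 15.28 (SD 0.38, 4 arrays) on day 42. let-7d had 13.74 ± 0.22 and 13.72 ± 0.37, and let-7i 13.58 ± 0.23 and 13.80 ± 0.12. miR-98 had 9.94 ± 0.23 and 10.22 ± 0.22. The 2 probes of a member gave changes within 0.0372 to 0.145 log2 units of each other, and only those of let-7d differed in sign (-0.10 and 0.03).

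**Figure D2:**
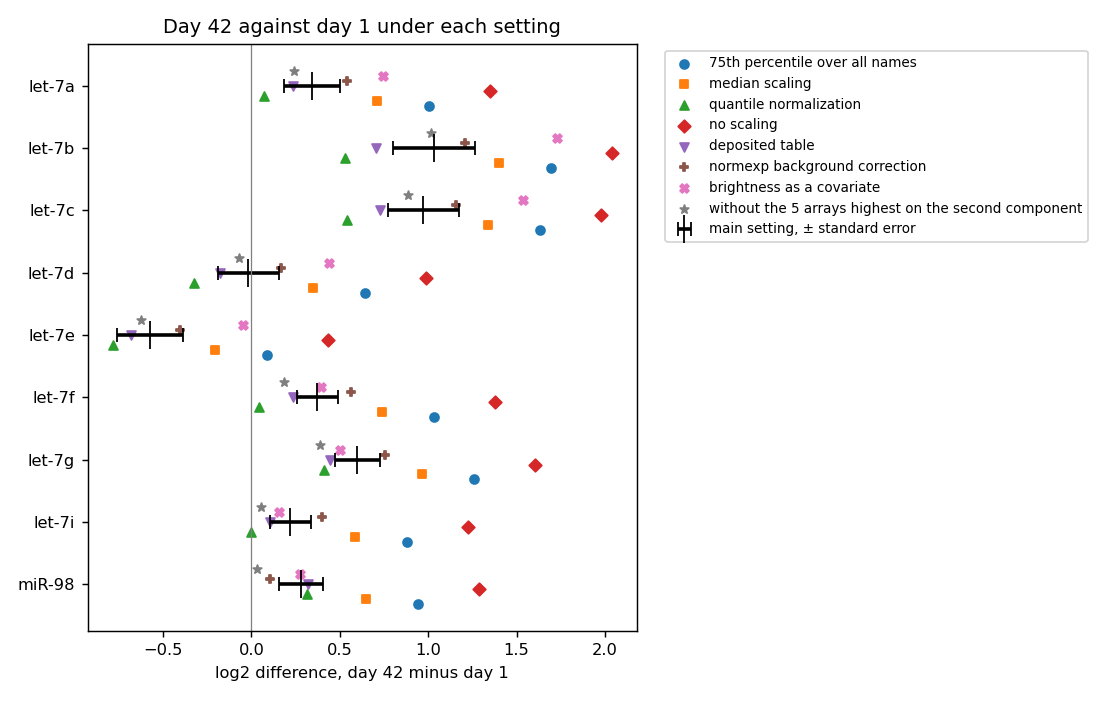
Log2 difference between day 42 and day 1 for each member under the main setting (vertical mark with its standard error as a bar) and under 8 alternatives (symbols; the grey star leaves out the 5 dim arrays). let-7b, let-7c and let-7g lie to the right of 0 under every one shown, while let-7e runs from -0.78 with quantile normalization to 0.43 with no scaling.

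At day 14, 6 members had risen over day 1. The rises on the log2 scale were 0.75 for let-7c (limma adjusted p = 0.00195), 0.72 for let-7b (0.00772), 0.61 for let-7g (0.000198), 0.45 for let-7f (0.00131), 0.43 for let-7i (0.00242) and 0.38 for miR-98 (0.00899). let-7a differed by 0.31 (0.0806), let-7d by 0.00 (1.00) and let-7e by -0.26 (0.203). Over all tested miRNAs 53.7% were called, 21.1% as higher and 32.6% as lower. For 7 members, all but let-7d and let-7e, no array of one age lay within the other's range, against a background of 35.4%. The median difference was 0.43 over the members and -0.17 over all tested miRNAs. With the 5 dim arrays left out, the same 6 members were called, and let-7a (0.38) as well. This comparison and that of day 42 share the day 1 arrays.

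Between neighbouring ages, let-7c was the only member called. Between day 7 and day 14, let-7c rose by 0.54 ± 0.19 (limma adjusted p = 0.0278), and let-7b differed by 0.53 (0.0671), let-7g by 0.26 (0.106), let-7a by 0.25 (0.229) and let-7f by 0.22 (0.136). That is 1 of 9 members called, on a background of 31.4%. For let-7b, let-7c, let-7f and let-7g (4 members) day 14 lay wholly above day 7, against no overlap for 37% of all tested miRNAs. The call of let-7c was lost on leaving out replicate 1, 2 or 3 of day 7 or replicate 1 or 2 of day 14 (adjusted p 0.0583 to 0.0690). Without the 5 dim arrays, none of which is of day 7 or day 14, let-7a, let-7b, let-7c, let-7f and let-7g were called with the same differences.

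The other steps held no call by limma. From day 1 to day 4 the 9 differences were positive, 0.08 to 0.36, with 2 members at an unadjusted p under 0.05 and a background of 1.55% called. From day 4 to day 7 they ran from -0.25 to 0.05, with 0 members at an unadjusted p under 0.05 and a background of 0.311%. From day 14 to day 42 they ran from -0.32 to 0.31, again with 0 members at an unadjusted p under 0.05, on a background of 32.6%. In that last step only let-7i had no overlap between the ages (13.94 to 14.11 at day 14, 13.66 to 13.93 at day 42), against 29.8% of all tested miRNAs. On leaving out the 5 dim arrays, let-7e fell by 0.51 on the log2 scale from day 14 to day 42 (adjusted p = 0.00179). An F-test over the 5 ages called 6 of 9 members, let-7b, let-7c, let-7e, let-7f, let-7g and let-7i, on a background of 65.5%.

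The make-up of the family was then read as each member's log2 level minus the mean log2 level of the 9 members on the same array. This value does not change when an array is multiplied by a constant. From day 1 to day 42, let-7b gained 0.67 ± 0.15 and let-7c 0.61 ± 0.11 against the family, while let-7e fell by 0.93 on the log2 scale (SE 0.10) and let-7d fell by 0.38 (SE 0.08). The adjusted p, from limma over the same difference for all 322 miRNAs, was 1.87e-08 for let-7e, 3.18e-05 for let-7c, 3.36e-04 for let-7d and 3.53e-04 for let-7b. let-7g (0.24, adjusted p = 0.117), let-7f (0.01), let-7a (-0.01), miR-98 (-0.08) and let-7i (-0.14) were not called. So 4 of 9 members were called, where 72.7% of all tested miRNAs were called against the same family mean. The 9 values sum to 0 on each array, so a gain of some members is tied to a loss of others.

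These 4 shifts had their sign and their call under each of the 13 alternatives and on leaving out any 1 array. Not all of the 13 could have moved them. The wider percentile, the median and no scaling multiply whole arrays, which cannot change these values. The filters on miRNAs also leave each member's difference as it was. Only the other alternatives are a check on the sign. let-7b ranged from 0.44 to 1.09 over the 13, let-7c from 0.45 to 0.90, let-7d from -0.41 to -0.20 and let-7e from -0.93 to -0.68. Without the 5 dim arrays 7 members were called, since let-7g (0.15), let-7i (-0.18) and miR-98 (-0.20) passed as well. With array brightness as a covariate 7 were also called, among them let-7f (-0.24).

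At day 14 the same 4 members had already shifted against day 1: let-7c by 0.37 (limma adjusted p = 0.00299), let-7b by 0.34 (0.0383), let-7d by -0.38 (2.21e-04) and let-7e by -0.63 (3.4e-06), on a background of 61.5%. Between day 14 and day 42, let-7d differed by -0.0016 against the family. let-7e went on falling between day 14 and day 42, by 0.30 (adjusted p = 0.0199; 1 of 9 members, background 37.3%), and had fallen by 0.33 between day 7 and day 14 (0.00589), when let-7c gained 0.31 (0.0165; 2 of 9 members, background 44.1%). No member was called from day 1 to day 4 (0 at an unadjusted p under 0.05; background 17.7%) or from day 4 to day 7 (0 at an unadjusted p under 0.05; background 0%).

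**Figure D3:**
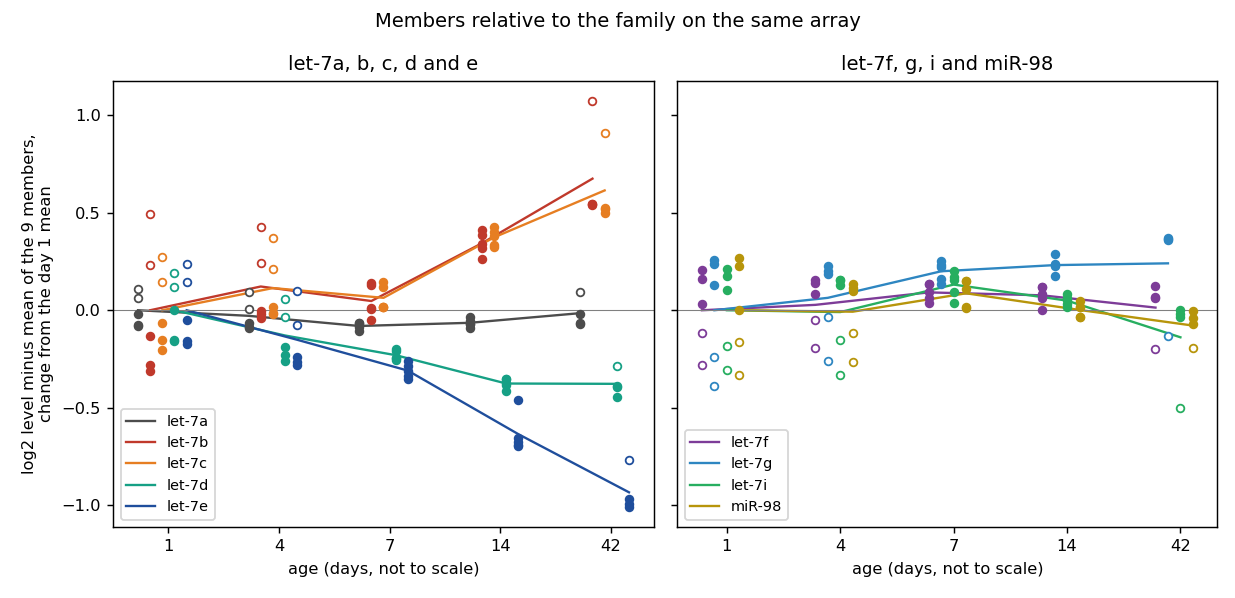
Log2 level of each member minus the mean of the 9 members on the same array, drawn as the change from the day 1 mean, by age in days (not to scale). Points are arrays, open for the 5 dim arrays, and lines join the means; let-7b and let-7c reach 0.67 and 0.61 at day 42 and let-7e reaches -0.93.

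The 4 pairs of members below were compared by the log2 ratio of their signals on the same array, at day 42 (4 arrays) against day 1 (5 arrays), with an exact permutation test, two-sided, whose smallest possible p is 0.0159. let-7b over let-7e pairs a member that rose with the one that fell, was chosen with their values known, and is given as a description with no test. It had ratios of 0.84, 0.80, 0.79, 1.17 and 1.01 at day 1 and of 2.43, 2.46, 2.47 and 2.76 at day 42. The ratio changed by 1.61 on the log2 scale, 3.05-fold. At the ages between, it lay between 1.14 and 1.25 at day 4, 1.21 and 1.35 at day 7, and 1.70 and 2.01 at day 14. Apart from day 1 and day 4, and day 4 and day 7, the ranges of the ages did not overlap.

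let-7d over let-7a, which share a cluster on chromosome 13, had ratios of -1.28 to -1.11 at day 1 and of -1.57 to -1.52 at day 42. The ratio fell by 0.36 on the log2 scale (p = 0.0159, exact permutation test). Adjusted over the 3 pairs that share a hairpin cluster, a choice made after seeing the data, its p was 0.0476. The hairpin of let-7f lies between those of let-7d and let-7a, and its pairs with them were not compared. Over the 4 pairs it was 0.0317, but that set counts the p of let-7b over let-7e, chosen with its values known, which lowers it. let-7b over let-7c, neighbours on chromosome 15, differed by 0.06 between the ages (p = 0.460, exact permutation test), and miR-98 over let-7f, neighbours on the X chromosome, by -0.09 (p = 0.0635, 0.0847 adjusted over the 4, exact permutation test). In the miRNA table used, let-7c and let-7f each have a further locus that the arrays cannot tell apart. Whether let-7a has a locus that this table lacks was not checked. Without the 5 dim arrays, 3 arrays against 3 cannot give a p below 0.1. The changes were then 1.64 for let-7b over let-7e and -0.31 for let-7d over let-7a, again with no overlap. Leaving out any 1 array other than replicate 4 of day 42 took the p of let-7d over let-7a, adjusted over the 4 pairs, above 0.05. With 1 array fewer, even the smallest possible p is above 0.05 after this adjustment, unless 3 of the 4 pairs reach it. The loss of the call was thus set by the number of arrays, and the change of the ratio stayed at -0.38 to -0.34. Without replicate 4 of day 42, miR-98 over let-7f was called (-0.12, p = 0.0476 adjusted over the 4 pairs, exact permutation test). The sign of this pair was not stable: it differed by 0.27 with quantile normalization and by 0.08 in the authors' deposited table.

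**Figure D4:**
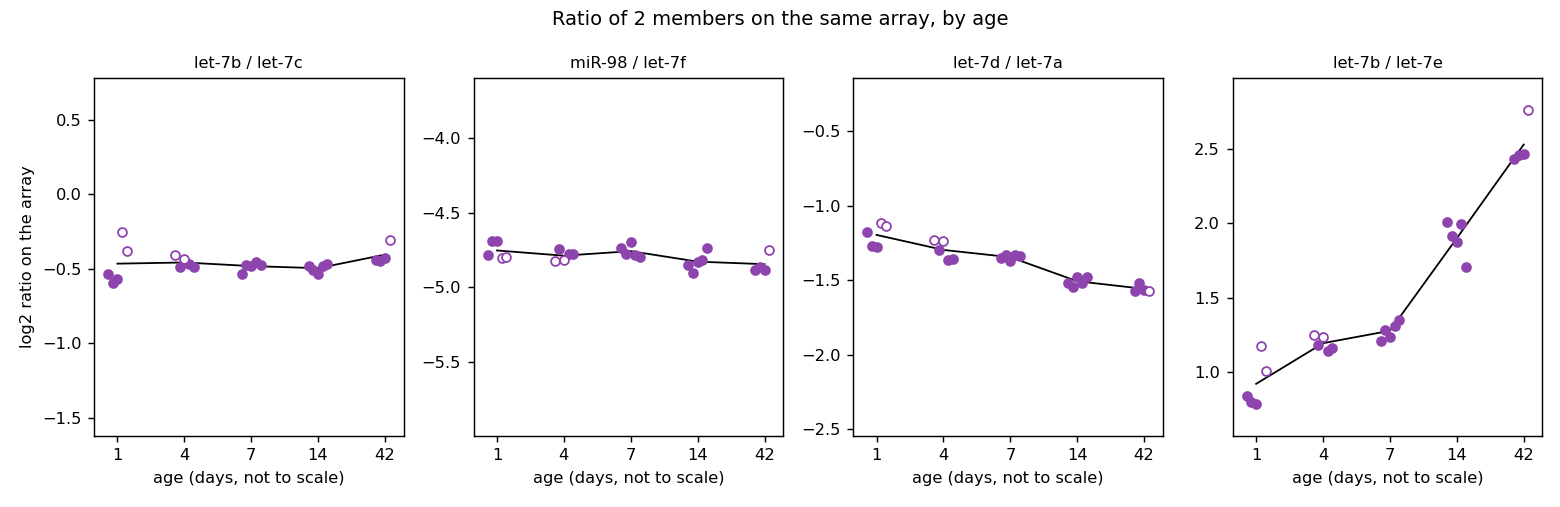
Log2 ratio of 2 members on the same array by age in days (not to scale), 1 panel per pair; points are arrays, open for the 5 dim arrays, lines join the means, and every panel spans the same number of log2 units. The ratio of let-7b to let-7e climbs from 0.79 to 1.17 at day 1 to 2.43 to 2.76 at day 42, while that of let-7b to let-7c changes by 0.06.

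Within an age, the 9 members fell into 2 sets that moved together from array to array, which was seen after the values were known. The sets differ at bases 11 and 12, shown in capitals for 5 members; let-7b, let-7c, let-7d and let-7e have the same 2 bases there as let-7a.
let-7a: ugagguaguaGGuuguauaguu
let-7f: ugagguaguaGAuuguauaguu
let-7g: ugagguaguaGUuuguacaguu
let-7i: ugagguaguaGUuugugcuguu
miR-98: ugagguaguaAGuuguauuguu

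After each age's mean was taken off, the Pearson correlation over the 24 arrays was 0.936 to 0.985 for the 10 pairs with GG in both, 0.859 to 0.970 for the 6 pairs with GG in neither, and -0.19 to 0.51 for the 20 mixed pairs. The points share their arrays and scaling. Without the 5 dim arrays (19 arrays) the mixed pairs had 0.575 to 0.919, and the other kinds 0.882 to 0.989 and 0.880 to 0.965. The mean of let-7a, let-7b, let-7c, let-7d and let-7e minus that of let-7f, let-7g, let-7i and miR-98 was 0.60 to 0.91 log2 units on the 19 other arrays and 1.17 to 1.60 on the 5 dim arrays. Within an age, the log2 level fell by 0.40 to 0.69 per doubling of array brightness for the members with GG, while that of the others differed by -0.02 to 0.10 per doubling. Each array was divided by this same brightness, so level and brightness are tied by construction, equally for both sets. The 5 dim arrays are the least bright of their ages and weigh on these slopes. The part of array quality in these levels was not tested beyond these values. The rises of let-7b and let-7c and the fall of let-7e lie within 1 set, and their size without the dim arrays is given above.

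**Figure D5:**
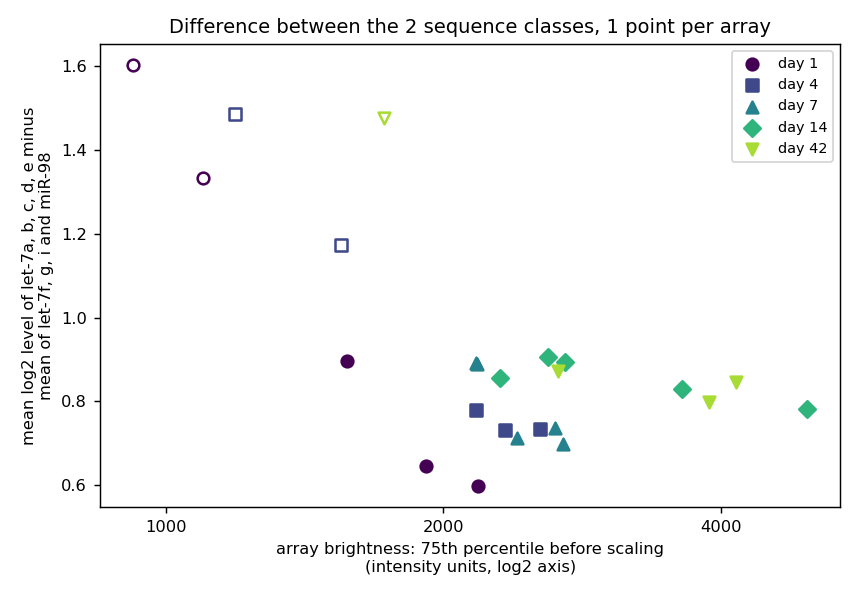
Mean log2 level of let-7a, b, c, d and e minus the mean of let-7f, g, i and miR-98 on each array (vertical), against the array's 75th percentile before scaling (horizontal, log2 axis, intensity units). Symbols are ages and open symbols the 5 dim arrays, which lie at 1.17 to 1.60, above the 0.60 to 0.91 of the other 19.

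The same hairpins give a second, less abundant strand, written with a star. Of 10 such minor arms listed, 7 are on the array, 4 were detected on any array and 3 were tested. From day 1 to day 42, let-7c-1* differed by -0.99 on the log2 scale (limma adjusted p = 0.00184), but it was detected on 3 of 5 arrays at day 1 and 1 of 4 at day 42, so that this value rests in part on arrays without a detected signal. let-7a* differed by -0.71 (0.0540) and let-7d* by -0.43 (0.155). The median of the 3 was -0.71, against -0.35 over all tested miRNAs. With the wider percentile the median over all tested miRNAs was 0.30, and the values of the 3 under that scaling were not read. With the 5 dim arrays left out, let-7a* fell by 0.94 (0.0195) and let-7d* by 0.46 (0.0390); both were detected on every array of these ages.

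miR-99a and miR-125a have hairpins beside let-7 hairpins, as given above. They were listed with the other miRNAs of the miR-99/100 and miR-125 families. The hairpins of miR-100 and miR-125b-1 lie within 50578 bases of each other on chromosome 9, and the table has no let-7 hairpin in that cluster. It has no hairpin of miR-99b at all. Whether hairpins that the table lacks lie in these clusters was therefore not read. Of 10 listed arms, 9 are on the array and 7 were tested. From day 1 to day 42, miR-100 rose by 1.39 ± 0.19, miR-125b-5p by 1.11 ± 0.26 and miR-99a, the neighbour of a let-7c locus, by 0.71 ± 0.18 (limma adjusted p = 1.4e-06, 0.000718 and 0.00170). miR-125a-5p, the neighbour of let-7e, fell by 0.74 on the log2 scale (0.0155), and so did miR-99b by 0.72 (0.0281) and miR-99b* by 0.80 (0.00639). miR-125a-3p differed by -0.37 (0.318). Thus 3 of 7 rose and 3 fell, where 18.9% of all tested miRNAs were called higher and 42.9% lower. The median was -0.37 beside -0.35 over all tested miRNAs. The same 6 were called without the 5 dim arrays. Their values under the other scalings were not read. The wider percentile multiplies whole arrays and moved the median over all tested miRNAs from -0.35 to 0.30. The size and sign of the 3 falls may therefore depend on the scaling, as for let-7e.

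The miRNAs outside the family with the most similar pattern were picked by the highest Pearson correlation over the 24 arrays among 217 candidates detected on all of them. For let-7b and let-7c this was miR-30a* (r = 0.961 and 0.974), for let-7e miR-342-5p (0.962), for let-7a miR-151-5p (0.952), for let-7f and miR-98 miR-350 (0.952 and 0.919), for let-7g miR-26b (0.948), for let-7d miR-221 (0.921) and for let-7i miR-27b (0.897). For the mean of the 9 members, the 5 most similar were miR-30c-2* (0.915), miR-99a (0.911), miR-30a* (0.902), miR-151-5p (0.885) and miR-24 (0.873). These correlations are descriptions: the points share arrays, scaling and ages, and the 5 dim arrays are among them.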

How the data were processed

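The deposited array files hold intensity values per spot from Agilent Feature Extraction 10.7.1.1, per the file headers and the submitters' processing notes, with a background-subtracted processed signal, and a detection flag per miRNA (other columns). Here the non-outlier spots of a probe were averaged, the probes of a miRNA were summed, each array was scaled to a common 75th percentile over the 228 miRNAs that all arrays detected, lower values were raised to a floor of 7.24, and log2 was taken. The authors' deposited table for the series holds log2 values for 672 names, with an equal median of 2.41 in every column and a correlation of at least 0.998 with the log2 total signal of its array; how it was scaled is not given in the sources used here, and it served as an alternative.

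Testing covered 322 miRNAs, those that all arrays of 1 age or more detected, with limma 3.58.1 in R 4.3.3, in 1 model of 5 ages over 24 arrays (19 residual degrees of freedom), with Benjamini-Hochberg adjustment over all 322; tests were two-sided. The fits were tested on simulated data, where differences were often missed and some had the wrong sign. The simulated size was larger than some differences called here, such as that of let-7f from day 1 to day 42 (0.37). A required share of right signs at such a size was not reached, and the requirement was relaxed after this was seen. Reading, exact permutation tests and drawing used Python 3.11.15, pandas 2.3.3, numpy 2.4.6 and matplotlib 3.10.9. A miRNA's neighbour was the non-member of highest correlation. The lists of minor arms, cluster partners and tissue markers, and the members, were chosen with earlier results of these data known. The number of arrays limits the precision, and p-values measure the spread between the samples that the labels call biological replicates.

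The replicate numbers are the labels' own, and no label says that a number marks a shared litter or day. Deviations from the age means correlated at 0.286 to 0.839 in all 4 same-numbered pairs of day 42 and day 1, whereas in the other comparisons at least 1 pair was below 0. A fit with the replicate number as a block was therefore made. Other alternatives were 5 scalings or sources of values (including none and quantile), the deposited total signal per miRNA, a normexp background correction (offset 50), 2 filters, the slide as a block, array brightness as a covariate, each probe alone and each array left out. Leaving out the 5 dim arrays was chosen after seeing the data. normexp was run on the median spot signal and the median background, in place of the mean signal that had been planned.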

Additional observations from a re-analysis of the deposited data

Results flagged for a closer look

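Over the 9 members and 5 ages, levels and levels minus the family mean were searched for an array set apart from the others of its age. Of 90 groups, 6 held one, where chance gives about 1 in 20 independent groups. These groups share their arrays and are not independent, so the count cannot be weighed against that share. Of the 6, 5 came from the dim replicate 4 of day 42. There, let-7b stood at 1.33 above the family mean on the log2 scale (next array 0.80), let-7c at 1.63 (next 1.25) and let-7e at -1.43 (next -1.63), each the highest of its age. let-7g stood at -0.50 (next -0.01) and let-7i at -0.29 (next 0.18), each the lowest of its age. The sixth was replicate 5 of day 14, where let-7e stood at -1.13 against the family mean, above the next array at -1.32. No hypothesis was tested on these values.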

How the results depend on the processing

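The number of members called, out of 9, moved by over 1.5 times in 5 comparisons; it also ran from 5 to 9 for day 14 against day 1 and from 4 to 9 for the F-test (6 called in each). For day 42 against day 1 (5 called) it was 8 where the 75th percentile was taken over all 650 names (the wider percentile) and 9 with no scaling. For day 14 against day 7 (1 called) it was 8 with the wider percentile, 6 with the median, 3 with no scaling or with brightness as a covariate, 5 without the 5 dim arrays, and 0 with quantile normalization, normexp or no filter. For day 42 against day 14 (0 called) it was 1 with the wider percentile, quantile normalization, brightness or no dim arrays. For day 4 against day 1 (0 called) it was 2 with no scaling and 3 with brightness. Against the family mean (4 called) it was 7 with brightness and 7 without the dim arrays.

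The sign turned in a value called under the main or the alternative setting for 5 members. let-7d rose from day 1 to day 42 by 0.64 with the wider percentile, 0.99 with no scaling and 0.44 with brightness. let-7e differed by 0.087 and rose by 0.43 under the first 2 of these, and from day 1 to day 14 by 0.83 with no scaling and 0.31 with brightness. let-7g rose by 0.27 from day 14 to day 42 with the wider percentile. Against the family mean, let-7f differed by -0.24 with brightness and miR-98 by 0.23 with quantile normalization. The median over all tested miRNAs for day 42 against day 1 was -1.19 with normexp and 0.64 with no scaling. The cause was not tested.

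Of the pairs, quantile normalization ended the call of let-7d over let-7a (-0.40, adjusted p = 0.127, exact permutation test) and gave 1.31 for let-7b over let-7e; without the dim arrays the values were -0.31, with no call at 3 arrays per age, and 1.64. miR-98 over let-7f was called with normexp (-0.46) and on leaving out 1 of the 9 arrays, and was positive under 2 alternatives. Leaving out 1 array gave -0.38 to -0.34, 1.53 to 1.67 and -0.12 to -0.076 for these 3 pairs, 0 to 2 members called for day 14 against day 7 and 0 to 1 for day 42 against day 14. The pairs were not run with blocks or covariates.

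With the replicate block, 5 members were called for day 42 against day 1 and 6 for day 14 against day 1, with no change of call, and the F-test called 5 in place of 6. Of the other values under the alternatives, 2143 kept direction and side of the threshold, 102 changed sign and 1 went to 0 without a call under either setting, 76 passed it anew, 17 no longer passed and 10 reversed as above. Signal over background limits none of the members, only the minor arms.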
